A study of Mus musculus with 9 samples.

Results

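The Pax family of transcription factors was followed across normal mouse cerebellum and a mouse tumour of the WNT-medulloblastoma type. Its members were taken by name, as the rows of the deposited count table with the symbols Pax1 to Pax9, and all 9 were present among 24444 symbols. Only 3 of them, Pax2, Pax3 and Pax6, held enough counts to be among the 15171 genes tested. RNA was sequenced from 9 libraries in 3 groups of 3. The control group was normal cerebellum of CD1-nude mice. Both tumour groups were orthotopic tumours in CD1-nude hosts, raised from implanted cells with the alleles Blbp-Cre, Ctnnb1Ex3flx/flx, Trp53flx/flx and Pik3caE545K +/flx. These alleles are a Cre recombinase driven by the promoter of Blbp, a gene of neural progenitors, a conditional deletion that stabilises beta-catenin, a conditional loss of p53 and an activated PI3-kinase subunit. The implanted cells carried MycT58A, which is Myc with a change that slows its breakdown, or the control labelled EV, taken to mean empty vector. Tumour pieces were dissected by GFP, so host cells within those pieces were also sequenced, and the ages of the mice are not given in the labels. The series describes the 3 libraries of a group as biological replicates. Whether each came from a separate animal or preparation of cells is not stated, so p-values measure only the spread between these libraries.

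Pax proteins bind DNA through the paired domain that names the family, and they act early in development to set regional and lineage identity. The members fall into subgroups by structure: Pax1 with Pax9, Pax2 with Pax5 and Pax8, Pax3 with Pax7, and Pax4 with Pax6. In the cerebellum Pax6 is a classical marker of granule cell precursors and granule neurons, Pax2 marks the precursors of inhibitory interneurons, and Pax3 is best known from the dorsal neural tube and the neural crest.

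Because the members share the paired box, the stretch of coding sequence most alike across the family is shown first for the members on which the results turn, to let their counts be judged. It is a 60-base window of the GENCODE vM21 coding sequences, found as the place where Pax3 and the other 8 members matched best without gaps. Capitals mark bases that differ from Pax3.
Pax3: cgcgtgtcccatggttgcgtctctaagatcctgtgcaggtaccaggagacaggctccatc
Pax7: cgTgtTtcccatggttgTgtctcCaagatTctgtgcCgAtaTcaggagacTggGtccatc
Pax6: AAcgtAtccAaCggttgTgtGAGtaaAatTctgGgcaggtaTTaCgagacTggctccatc
Pax2: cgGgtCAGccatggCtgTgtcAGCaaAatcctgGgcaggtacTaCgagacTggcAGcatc
Pax9: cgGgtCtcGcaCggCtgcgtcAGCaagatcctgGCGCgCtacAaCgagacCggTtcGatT
Pax7, the closest relative of Pax3, matched it at 83.3% of these bases, with 10 differences. Pax2 and Pax6 each matched Pax3 at 73.3%, Pax9 at 68.3% and Pax4, the most divergent, at 55%. No run of 50 bases was shared by the annotated transcripts of any pair of members. The longest exact run between Pax3 and Pax6 was 37 bases, and between Pax2 and Pax8 it was 27 bases. The sources used here give neither the read length nor the counting rule.

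RefSeq promoter windows, from 250 bases before to 50 bases after an annotated start (GRCm38.p6), were found for 7 of the members as 10 windows. Pax3 and Pax4 were not among them. Beta-catenin acts on its targets together with TCF/LEF factors. Both strands of each window were therefore searched for 2 forms of the core of their site, CTTTGT and CTTTGA. The form CTTTGT was found in 3 of the 10 windows, beside 18.7% of all 32851 promoter windows in the table. The form CTTTGA was found in none of the 10, beside 16% of all windows. Myc binds the element called the E-box, and its palindromic form CACGTG was found in none of the 10, beside 7.15% of all windows. The TATA box, a core promoter element searched as TATAAA, was likewise found in none, beside 13.6% of all windows. One window is shown for each of the 2 members in which the first of these motifs was found, with the match, which here reads as the reverse complement, in capitals. The Pax2 window lies at chr19:44755502-44755801 and the Pax6 window at chr2:105682213-105682512, both on the plus strand.
Pax2: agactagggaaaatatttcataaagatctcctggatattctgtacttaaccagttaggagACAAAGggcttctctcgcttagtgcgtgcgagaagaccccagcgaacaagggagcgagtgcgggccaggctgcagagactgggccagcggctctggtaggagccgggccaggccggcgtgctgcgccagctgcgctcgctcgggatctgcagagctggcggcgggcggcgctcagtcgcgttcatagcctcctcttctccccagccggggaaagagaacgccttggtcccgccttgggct
Pax6: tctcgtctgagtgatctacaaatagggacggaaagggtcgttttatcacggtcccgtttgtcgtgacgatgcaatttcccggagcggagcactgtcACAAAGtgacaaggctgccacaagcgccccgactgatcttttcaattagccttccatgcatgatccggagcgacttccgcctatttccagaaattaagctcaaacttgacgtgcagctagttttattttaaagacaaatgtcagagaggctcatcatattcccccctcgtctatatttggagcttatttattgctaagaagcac
A match describes these letters only and is not a measured binding site.

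Total counts per library were 16631523 to 30410089. The engineered gene Myc stood at 726 to 917 CPM (counts scaled to library size by TMM) in the MycT58A libraries. It stood at 0.94, 1.59 and 32.0 CPM in the controls and at 360, 19.9 and 761 CPM in the EV libraries, so the library labelled EV replicate 3 lay within the MycT58A range and the MycT58A label is not separated by Myc itself. Some values of Pax3 and Pax6 are also given without that library. Calls of other genes between the tumour groups are given only with it. For the controls, 1 label field names cortex and the others cerebellum. The summed markers of cerebellar granule neurons were 4756 to 6751 CPM in the controls, against 3.67 to 6.06 CPM for forebrain cortex. In the tumours the same granule neuron sum was 13.9 to 74.0 CPM.

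The leading member of the family differed between the controls and the MycT58A libraries. Per length of transcript (RPKM, the CPM per kilobase of annotated exon), Pax6 made up 69.1% to 69.9% of the summed family level in the control libraries, with Pax2 at 15.0% to 16.4% and Pax3 at 12.2% to 15.7%. In the MycT58A libraries Pax3 was the leading member, at 78.1%, 74.7% and 86.9% of the sum. The EV libraries did not share a pattern. Pax6 led in EV replicates 1 and 2, at 53.6% and 87.9%, and Pax3 led in the library labelled EV replicate 3, at 74.3%. The summed level was 10.4, 11.2 and 11.7 RPKM in the controls, 7.46, 6.94 and 9.10 RPKM in the MycT58A libraries and 0.754, 5.32 and 0.431 RPKM in the EV libraries. Both tumour groups lay below every control, and EV below every MycT58A library.

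**Figure D1:**
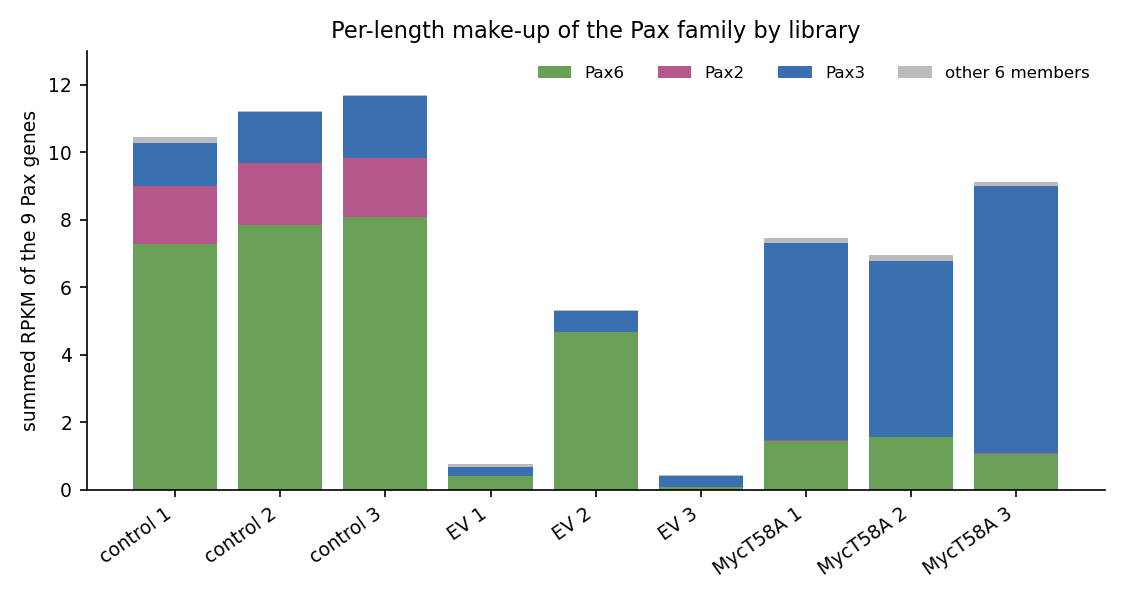
Summed RPKM of the 9 Pax members in each of the 9 libraries, with the parts of Pax2, Pax3, Pax6 and the other members stacked. Pax6 is the largest part in the 3 controls and Pax3 in the 3 MycT58A libraries, while the EV libraries range from 0.431 to 5.32 RPKM.

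Ordered by mean level per length, the controls held Pax6 at 7.73 ± 0.407 RPKM (SD, n = 3), Pax2 at 1.77 ± 0.0683 RPKM and Pax3 at 1.54 ± 0.280 RPKM. The ranges of Pax2 and Pax3 overlapped, so their order is not settled, whereas Pax6 lay above both in every control. In the MycT58A libraries the order was Pax3 at 6.31 ± 1.42 RPKM and Pax6 at 1.34 ± 0.275 RPKM, with Pax3 above Pax6 in each of the 3 libraries. In the EV libraries Pax6 averaged 1.72 ± 2.56 RPKM and Pax3 0.405 ± 0.185 RPKM, and their ranges overlapped. The ratio of Pax3 to Pax6 in RPKM was 0.175 to 0.227 in the controls, 3.30 to 7.62 in the MycT58A libraries and 0.132 to 3.89 in the EV libraries.

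Pax3 (chr1:78101267-78197134, minus strand, mm10) was lower than control in EV tumours and higher than control in MycT58A tumours. It stood at 7.88, 9.34 and 11.3 CPM in the controls, at 1.71, 3.82 and 1.98 CPM in the EV libraries and at 36.0, 32.1 and 48.9 CPM in the MycT58A libraries. The 3 groups did not overlap, with every EV library lowest and every MycT58A library highest. Pax3 fell 3.79-fold in EV tumours (log2 fold change -1.92 ± 0.36 SE, edgeR adjusted p = 0.00221). In MycT58A tumours it rose 4.10-fold against control (log2 fold change 2.04 ± 0.35 SE, edgeR adjusted p = 0.00127). Between the tumour groups it was 15.6-fold higher with MycT58A (log2 fold change 3.96 ± 0.39 SE, edgeR adjusted p = 0.00481) and ranked 13 by p among the 15171 genes tested. Without the library labelled EV replicate 3 this last difference was 3.83 on the log2 scale (edgeR adjusted p = 0.00219). The call between EV and control ended when limma-voom gave each group its own weight (adjusted p = 0.0863).

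Some cell types known to express Pax3 were read beside it, and the source of Pax3 in the control cerebellum was not tested. Of 8 skeletal muscle markers, the determination factors Myf5 and Myf6 had no count in any of the 9 libraries. The list summed to 0.255 to 1.38 CPM in MycT58A libraries, against 1.91 to 3.89 CPM in the controls and 1.37 to 7.42 CPM in EV. The 6 melanocyte markers summed to 8.69 to 11.1 CPM in MycT58A libraries, 8.998 to 12.2 CPM in controls and 8.04 to 26.8 CPM in EV libraries. Its members did not move together in MycT58A tumours, where Dct, a pigment enzyme, rose 7.21-fold against control and Mitf and Pmel fell 3.42-fold and 4.26-fold (edgeR adjusted p = 0.0141, 0.00837 and 0.0179). Markers of pericytes and fibroblasts, a lineage partly of neural crest origin, differed between the groups and summed to 254 to 328 CPM in controls, 2548 to 11711 CPM in EV and 1389 to 1721 CPM in MycT58A libraries. Their part in the Pax3 values was not tested.

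Pax2 (chr19:44756045-44837871, plus strand) was present in normal cerebellum and all but absent from the tumour libraries. The controls held 9.23, 9.96 and 9.51 CPM, from 204 to 226 counts each. No count was found in any EV library, and the MycT58A libraries held 6, 0 and 6 counts, or 0.216, 0 and 0.255 CPM. Every tumour library lay below every control. Taking 3 counts summed over the EV group as the floor, Pax2 was at least 224-fold lower in EV tumours (edgeR adjusted p = 0.000879). It fell 59.9-fold in MycT58A tumours (log2 fold change -5.90 ± 0.97 SE, edgeR adjusted p = 0.00199), with a log2 fold change of -5.31 without MycT58A replicate 2 and -6.54 by limma-voom. The tumour groups overlapped at 0, and the difference between them did not pass the test (edgeR adjusted p = 0.0938), although DESeq2 called it (adjusted p = 0.0148).

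Pax6 (chr2:105668900-105697364, plus strand) was lower in every tumour library than in every control, but its spread in the EV group was wide. The controls held 85.2, 91.6 and 94.5 CPM, and the MycT58A libraries 16.7, 18.4 and 12.1 CPM. The EV libraries held 4.72, 54.6 and 0.963 CPM, so EV replicate 2 lay above all MycT58A libraries and the other EV libraries below them. The mean was 4.49-fold lower in EV (log2 fold change -2.17 ± 1.10 SE, edgeR adjusted p = 0.121) and 5.75-fold lower in MycT58A tumours (-2.52 ± 1.11 SE, edgeR adjusted p = 0.0766), and neither passed. Each gene has 1 dispersion over all 9 libraries, so the spread among EV libraries also enters the comparison of MycT58A with control. With only those 2 groups in the edgeR fit the difference passed (log2 fold change -2.52, edgeR adjusted p = 4.92e-06). By limma-voom with all libraries both differences from control passed, that of EV at -3.71 on the log2 scale (limma-voom adjusted p = 0.00739). Without EV replicate 2 the EV difference was -4.94 on the log2 scale (edgeR adjusted p = 0.000292), and without the library labelled EV replicate 3 that of MycT58A passed (edgeR adjusted p = 0.0162).

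Between the tumour groups the direction of Pax6 changed with EV replicate 2 and with the tool. With all libraries the log2 fold change of MycT58A against EV was -0.36 ± 1.06 SE (edgeR adjusted p = 0.839). Without EV replicate 2 it was higher, at 2.43 (edgeR adjusted p = 0.0270). It was also reversed with all libraries by limma-voom, with and without a weight per group.

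**Figure D2:**
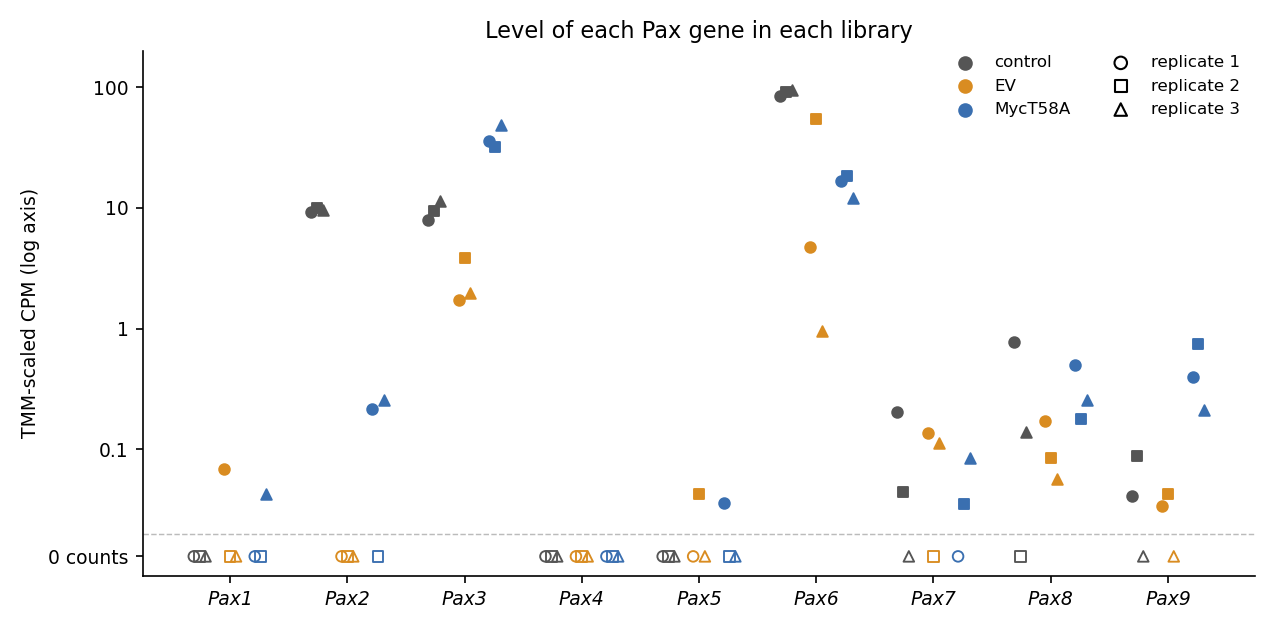
CPM of Pax members, among them Pax2, Pax3 and Pax6, in each library by group. Pax3 separates all 3 groups, Pax2 is near 0 in both tumour groups, and the 3 EV libraries of Pax6 range from 0.963 to 54.6 CPM.

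**Figure D3:**
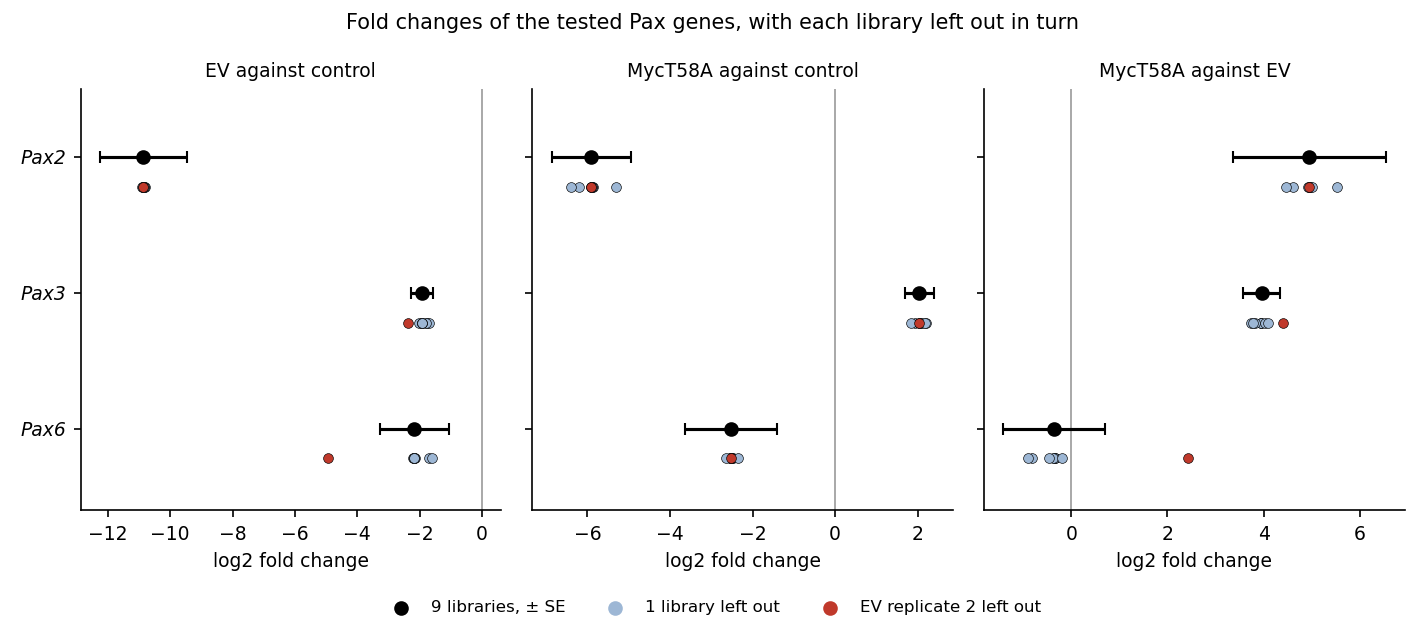
Log2 fold change of Pax2, Pax3 and Pax6 in each comparison with all libraries and with each library left out in turn. Pax3 keeps its direction throughout, Pax6 between the tumour groups moves from -0.36 to 2.43 without EV replicate 2, and fitted values of Pax2 for EV come from a group without counts and are not bounds.

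Relative to the control mean, Pax6 was at 5.22%, 60.5% and 1.07% in the EV libraries and at 18.4%, 20.3% and 13.4% in the MycT58A libraries. The summed markers of granule neurons, cells that express Pax6, were at 0.229% to 0.878% in EV and 0.454% to 1.22% in MycT58A libraries. Pax6 lay above that sum in all 6 tumour libraries, but not above every marker in it. Etv1, 1 of the 9 markers, stood at 18.6 CPM in the library labelled EV replicate 3, against 247 to 347 CPM in controls, and so kept a larger share than Pax6 there. In bulk tissue, fewer cells of a type and less RNA per cell cannot be told apart. The cerebellar GABA lineage genes, read beside Pax2, summed to 0.824% to 1.81% of control in EV and 1.87% to 2.77% in MycT58A libraries.

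A pair of noncoding genes at the Pax6 locus was read with it. Pax6os1 (chr2:105536080-105670330, minus strand) overlaps the start of Pax6 on the opposite strand, and its reads cannot be told apart from Pax6 there if strand was not used. It held 23, 26 and 38 counts in the controls, 0, 5 and 0 in EV and none in MycT58A libraries. It fell in EV (log2 fold change -4.07 ± 1.17 SE, edgeR adjusted p = 0.0233), a call that ended without control replicate 2 or control replicate 3 (edgeR adjusted p = 0.0576 and 0.0681). It was at least 33.6-fold lower in MycT58A tumours against the floor of 3 counts (edgeR adjusted p = 0.00525). Paupar (chr2:105657862-105661343), a noncoding neighbour of Pax6, held 14, 12 and 2 counts in controls and 0 to 2 counts in each tumour library, too few for the low-count filter. With no such filter its difference from control passed in MycT58A tumours (edgeR adjusted p = 0.0396) and not in EV tumours (edgeR adjusted p = 0.0561), and DESeq2 gave the same calls (adjusted p = 0.0349 and 0.0551). Of the 10 alternatives that gave Paupar a value, it passed in 8 for MycT58A and 6 for EV against control.

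The other 6 members were near the limit of detection. Pax9, known from the pharyngeal pouches and teeth, held 1, 2 and 0 counts in controls, 1, 1 and 0 in EV and 11, 21 and 5 in MycT58A libraries. Every MycT58A library lay above all others, with a ratio of 10.6 to control (exact 95% interval 3.37 to 53.9) and 16.4 to EV (4.23 to 140), intervals that cover counting error only. With no low-count filter the difference from control passed (edgeR adjusted p = 0.0240) and that from EV did not (edgeR adjusted p = 0.0750), while DESeq2 called both (adjusted p = 0.0262 and 0.0379). Pax8, a factor of thyroid and kidney, held 19, 0 and 3 counts in controls, 5, 2 and 1 in EV and 14, 5 and 6 in MycT58A libraries, and control replicate 1 held most of its control counts. Pax7, the relative of Pax3 in muscle stem cells, held at most 5 counts in a library and 15 in all. Pax1, of the sclerotome, held 3 counts in all, Pax5, of B cells and the midbrain, 2, and Pax4, of the endocrine pancreas, none. At this depth, 3 counts correspond to 0.102 to 0.170 CPM in a library.

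Against control, the share of tested members called was near that of all genes. In EV tumours 2 of the 3 tested members passed, both lower, where 57% of all genes tested passed, 30.7% as higher and 26.3% as lower. In MycT58A tumours 2 of 3 passed, 1 higher and 1 lower, where 62.2% of all genes passed, 31.2% as higher and 31% as lower. With MycT58A set against EV, 1 of 3 passed, Pax3, where 8.3% of all genes passed with 3.28% higher and 5.02% lower. The median log2 fold change over all genes tested was 0.14, -0.02 and -0.04 in these comparisons.

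Genes that work with Pax proteins were read from lists of known partners and lineages. Eya and Dach proteins form a network with Pax proteins. Eya4, a phosphatase and coactivator, stood at 0.612, 0.531 and 0.466 CPM in controls, 0.274, 0.339 and 0.170 CPM in EV and 3.81, 5.03 and 5.45 CPM in MycT58A libraries. Like Pax3, it was highest in all 3 MycT58A libraries and lowest in all 3 EV libraries. Unlike that of Pax3, its fall in EV against control did not pass (edgeR adjusted p = 0.0650). Between the tumour groups Eya4 differed by 4.15 on the log2 scale (± 0.44 SE, edgeR adjusted p = 0.00505). Six5 rose in both tumour groups, from 1.73 to 2.25 CPM in controls to 10.2 to 24.1 CPM in EV and 18.1 to 23.8 CPM in MycT58A libraries. Six2, a progenitor factor, also rose in both, 23.2-fold with EV and 43.2-fold with MycT58A (edgeR adjusted p = 0.00106 and 0.000399). These 3 genes were named for their small p and do not describe the rest of their list.

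Among 10 tested Pax cofactors, 3 rose and 1 fell in EV against control (median log2 fold change -0.18), 4 rose and 3 fell in MycT58A against control (median 0.38), and 2 fell between the tumour groups (median 0.30). Over all genes tested, 30.7% rose and 26.3% fell, 31.2% rose and 31% fell, and 3.28% rose and 5.02% fell in these comparisons. Tle1, a Groucho-type corepressor, rose in both tumour groups, 3.92-fold with EV and 5.20-fold with MycT58A (edgeR adjusted p = 0.00142 and 0.000485). Tle2 and Tle4, of the same family, were the pair lower in MycT58A than in EV tumours, by 4.19-fold and 2.14-fold (edgeR adjusted p = 0.0410 and 0.0433). Sox2, a partner of Pax6 in eye and neural progenitors, stood at 51.0 to 55.0 CPM in controls, at 1.71, 27.7 and 0.906 CPM in EV and at 90.1 to 129 CPM in MycT58A libraries. As with Pax6, EV replicate 2 held far more Sox2 than the other EV libraries.

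Lists of the lineages in which the members normally act were read in the same way. Over all genes tested, 30.7% rose and 26.3% fell in EV and 31.2% rose and 31% fell in MycT58A against control. Between the tumour groups 3.28% of all genes were higher and 5.02% lower in MycT58A. Of 15 tested genes of the rhombic lip and granule cell progenitors, the setting of Pax6, 12 fell in EV and 12 in MycT58A against control (median log2 fold change -5.57 and -3.43), while 1 and 2 rose. Neurod2, a factor of maturing neurons, fell 242-fold and 94.1-fold. Atoh1, on the same list, was too low to test. It had no count in control or EV libraries and 1 count over the MycT58A libraries. Other genes of the list were high in control cerebellum, such as Reln at 354 to 473 CPM. The list therefore does not stand for progenitors alone. In MycT58A against EV, 3 of the 15 rose and none fell (median 0.94), among them Zic1, at 1.27, 11.0 and 5.38 CPM in EV and 34.4, 37.6 and 56.5 CPM in MycT58A libraries (edgeR adjusted p = 0.0340). Of 10 tested genes of the cerebellar GABA lineage, the setting of Pax2, 8 fell in EV and 9 in MycT58A against control and none rose (median -7.22 and -6.20, the first -7.18 with Slc6a5, without counts in EV, at its bound), and between the tumour groups none passed by edgeR (median 0.85), with 2 at an unadjusted p under 0.05. Gad1, which makes GABA, fell 95.6-fold and 70.3-fold, and Lhx5 fell 395-fold and 263-fold.

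Of 12 tested genes of the dorsal neural tube and neural crest, the setting of Pax3, 5 rose and 4 fell in EV and 4 rose and 4 fell in MycT58A against control (median log2 fold change 1.03 and 0.24). Over all genes tested, 30.7% rose and 26.3% fell in EV and 31.2% rose and 31% fell in MycT58A against control. Msx1 and Snai2 rose in both tumour groups, Msx1 55.7-fold and 36.5-fold and Snai2 23.2-fold and 37.6-fold. Other genes of the list fell in both, Sox10 88.6-fold and 30.0-fold, Ret 30.6-fold and 71.8-fold and Ednrb 4.48-fold and 17.2-fold. Between the tumour groups only Msx3 passed of the 12, where 8.3% of all genes passed, and the list median was -0.89. Msx3, a dorsal neural tube homeobox gene, had no count in the controls and stood at 0.342, 0.255 and 1.30 CPM in EV and 5.36, 15.1 and 9.92 CPM in MycT58A libraries (edgeR adjusted p = 0.0362). Of 8 tested genes of the midbrain-hindbrain organiser, the setting of Pax2 and Pax5 in the embryo, 4 rose and 3 fell in EV and 3 rose and 2 fell in MycT58A against control (median 2.77 and 2.15). The EV count was 3 to 6 with a library left out and 3 with only the 2 groups compared. None passed between the tumour groups by edgeR (median -0.03), with 2 at an unadjusted p under 0.05. Spry1, an antagonist of FGF signalling, rose 9.88-fold and 5.93-fold. Its relative Spry2, on the same list, fell in both tumour groups, with log2 fold changes of -1.32 and -1.71 (edgeR adjusted p = 0.0273 and 0.00825). En1, also on the list, fell with log2 fold changes of -6.28 and -5.32 (edgeR adjusted p = 0.00382 and 0.00512). With 1 library left out, the calls between the tumour groups ran from 0 to 4 for the Pax cofactors, 0 to 5 for the granule progenitor list and 0 to 4 for the dorsal list.

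**Figure D4:**
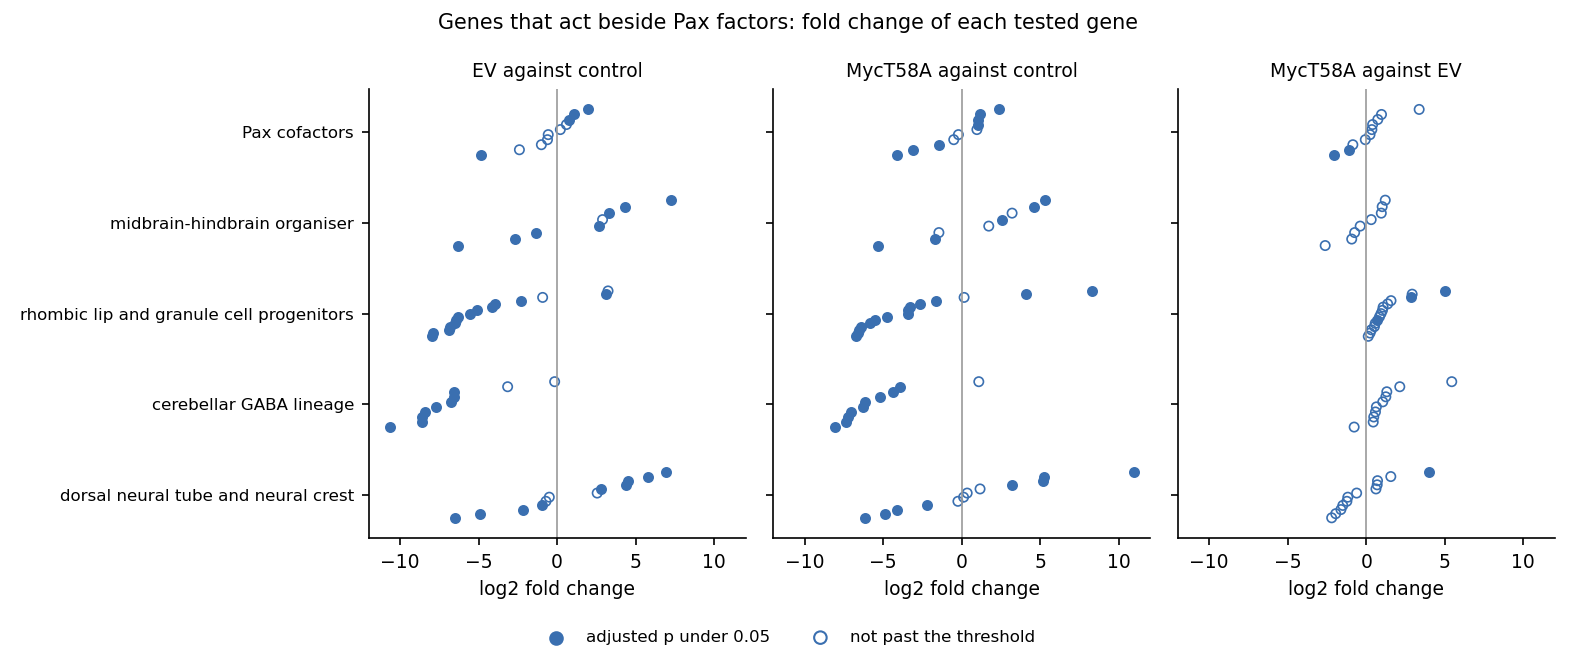
Log2 fold change of each tested gene of 5 lists in the 3 comparisons, by list, with filled points past the threshold. The GABA lineage and granule progenitor lists lie mostly below 0 against control, with medians of -7.22 and -5.57 in EV tumours.

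Genes with the pattern most like each tested member were found by the smallest root mean square difference of centred log2 CPM over the 9 libraries. Asphd1, Fn3k and Gpr12 lay closest to Pax2, at 0.284, 0.310 and 0.336, and Cfc1, Irx6 and Mgmt closest to Pax3, at 0.496, 0.557 and 0.559. Cfc1, a co-receptor of Nodal signalling, had no count in EV and reached 0.575, 0.957 and 1.58 CPM in MycT58A libraries. Gabra2, Hrh3 and Serpini1 lay closest to Pax6, at 0.407, 0.467 and 0.518. Gabra2, a GABA receptor subunit, had the same uneven EV libraries as Pax6, at 5.68, 170 and 1.76 CPM.

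Within 250 kb of a member's start, measured to the start of the other gene, 23 annotated protein-coding genes had counts deposited and 17 were tested. Of these, 4 rose and 5 fell in EV, where 57% of all genes tested passed. In MycT58A tumours 2 rose and 3 fell, where 62.2% of all genes passed. Between the tumour groups 1 was higher and 1 lower in MycT58A than in EV, where 8.3% of all genes passed. Sgpp2, an enzyme of sphingolipid metabolism that starts 113 kb from Pax3, passed in all 3 comparisons. It stood at 115, 108 and 85.6 CPM in controls, 0.855, 1.65 and 1.25 CPM in EV and 6.97, 9.04 and 8.77 CPM in MycT58A libraries. Its tumour libraries all lay below the controls, unlike Pax3 in MycT58A tumours, while both genes were higher in MycT58A than in EV tumours (Sgpp2 log2 fold change 2.72, edgeR adjusted p = 0.00481). Sema4g, 233 kb from Pax2, fell by 4.08 on the log2 scale in each tumour group, and Nkx2-2, 168 kb from Pax1, fell by 4.78 and 5.54. Ndufb8, 201 kb from Pax2, fell by 0.74 in EV. Other neighbours rose: Snd1 near Pax4, by 1.51 and 2.12, Aldh4a1 near Pax7, by 1.62 and 2.22, and, in EV, Psd4 and Il1rn near Pax8, by 2.93 and 3.07, which did not pass in MycT58A tumours. Psd4 was also lower in MycT58A than in EV tumours (log2 fold change -3.15, edgeR adjusted p = 0.01297). Near Pax6, Elp4, whose introns hold distant Pax6 enhancers, fell by 0.66 in EV (edgeR adjusted p = 0.0258) and did not pass in MycT58A tumours (edgeR adjusted p = 0.585).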

How the data were processed

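RNA-seq counts of 9 mouse libraries were used, 3 each of control cerebellum, EV tumours and MycT58A tumours. The authors deposited whole-number counts per gene symbol. Per the labels' protocols, a NucleoSpin kit gave the total RNA. The submitters' processing notes name bcl2fastq, TopHat, edgeR and the build mm10. The sources used here do not give versions, the counter, the annotation or strand use. Samples were grouped by source name and genotype. Replicate numbers are accession order and pair nothing.

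The filter on low counts was filterByExpr (count 10, total 15). The counts were scaled by TMM and fitted with 1 mean per group over all 9 libraries (glmQLFit and glmQLFTest of edgeR 4.0.16 in R 4.3.3), with 6 residual degrees of freedom. P-values were adjusted by Benjamini-Hochberg over the 15171 genes tested, at a threshold of 0.05. Floors of 3 counts over a group and exact 95% intervals cover counting error only. Library totals of 16631523 to 30410089 set the precision. Positions and exon lengths come from GENCODE vM21, which held 23695 of the symbols. The fit was tested on simulated data.

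Named genes are the 9 members, up to 2 genes of smallest p per list and comparison among those past the threshold, marker genes that bear on a member's source, the 3 genes most like each tested member (prior count of 2 on the log2 scale, predicted genes left out), neighbours past the threshold, and Myc. Sox2, Pax6os1, Paupar, Atoh1, Sox10, Ret, Ednrb, Spry2 and En1 were chosen after their values were seen. The members and lists were chosen with earlier results of these data known. The counts of 1 list of Pax partners are not reported here.

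Alternatives changed the scaling (RLE, or library size only), the filter (none, or 1 CPM in each library of a group), the samples fitted (the 2 groups compared) or the tool: DESeq2 1.42.0 or limma-voom (limma 3.58.1), with and without a weight per group. Each library was also left out in turn. DESeq2 without the Cook's distance filter was added after that filter withheld the p-value of Pax6. Figures were drawn with matplotlib 3.10.9.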

Additional observations from a re-analysis of the deposited data

Results flagged for a closer look

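Pax3 moved in opposite directions in the tumour groups when each was set against control cerebellum. Its log2 fold change was -1.92 in EV tumours and 2.04 in MycT58A tumours, and all 3 libraries of each group lay on the group's side of the controls. The test of the difference itself, MycT58A against EV, gave 3.96 on the log2 scale (edgeR adjusted p = 0.00481). Both folds share the same control libraries.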

How the results depend on the processing

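Pax3 kept its direction under all 18 alternatives in each comparison and its call in all but 1 of them for EV against control. Pax2 against control kept its calls in all 18 for both tumour groups. Pax6 passed in 3 of 17 alternatives for EV against control, 6 of 17 for MycT58A against control and 1 of 17 between the tumour groups. Between the tumour groups Pax6 was reversed at 1.18 with limma-voom, 1.16 with limma-voom and a weight per group, and 2.43 without EV replicate 2 (edgeR adjusted p = 0.0270 for the last); the cause was not tested. Pax6 also moved to -0.90 without the library labelled EV replicate 3. Members past the threshold, 2 for MycT58A against control, were 3 with no low-count filter and with only the 2 groups compared. They were also 3 with DESeq2 and limma-voom, 4 with DESeq2 without the Cook's distance filter, and 2 to 3 with a library left out. For EV against control, where 2 passed, 3 passed with limma-voom and without EV replicate 2. Between the tumour groups, where 1 passed, 3 passed with DESeq2, 3 with DESeq2 without the Cook's distance filter, and 1 to 2 with a library left out. Over all genes, the 1259 calls between the tumour groups became 34 with only the 2 groups compared, 3423 with DESeq2, 3788 with DESeq2 without the Cook's distance filter and 449 with limma-voom and a weight per group, and ran from 36 to 4032 with a library left out. Library size alone moved the median log2 fold change between the tumour groups by -0.12 and the share of higher calls from 39.6% to 24.8%. Calls between the tumour groups therefore depend on the tool and on single libraries. Pax6os1 gave no value between the tumour groups without EV replicate 2, since both groups then held no counts. No paired analysis was possible because the labels carry no replicate numbers.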

Other observations

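Single marker genes of organs in which other Pax members act were picked with their values known, and do not stand for their lists. Nkx6-1, a homeobox factor of pancreatic islets and of the ventral neural tube, stood at 0 to 0.133 CPM in controls, at 0.582, 2.72 and 25.9 CPM in EV and at 32.1, 21.2 and 26.6 CPM in MycT58A libraries. Tbx1, a factor of the pharyngeal region, stood at 1.33 to 1.67 CPM in controls, 0.0684, 1.74 and 0.623 CPM in EV and 19.8, 20.03 and 17.1 CPM in MycT58A libraries. Wt1, a factor of the developing kidney, had 1 count over the controls and stood at 0.0342, 0.382 and 0.0566 CPM in EV and 2.59, 2.66 and 1.45 CPM in MycT58A libraries. Krt5, an epithelial keratin on the same list as Tbx1, went the other way between the tumour groups, at 14.2, 1.49 and 129 CPM in EV and 0.0355 to 0.0719 CPM in MycT58A libraries. Pax4, the islet member of the family, had no count in any library.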
